A study of Ovis aries with 15 samples.

Results

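The unfolded protein response was examined through 10 of the 25592 genes measured in the sheep kidney libraries. The members were taken as named genes with known roles in the response, and each was read from the row of the expression table that carries its symbol. They are the endoplasmic reticulum (ER) stress sensors ERN1 (IRE1), ATF6 and EIF2AK3 (PERK), the transcription factors ATF4, DDIT3 (CHOP) and XBP1, and the targets HSPA5 (BiP), HSP90B1 (GRP94), DNAJB9 (ERdj4) and TRIB3. Kidneys came from crossbred male sheep (Dorper × Small-tailed Han, 4 months old), which were fed a total mixed ration alone (CON), the ration with 500 µg of aflatoxin B1 per kg of dry matter (AFB1), or the ration with the same AFB1 dose and 800 mg of curcumin per kg of dry matter (AFB1_CUR) for 21 days. Curcumin is a plant polyphenol, and AFB1 is a toxin of Aspergillus moulds. Each group had 5 libraries, each labelled as kidney RNA. The sheep were housed 2 to a pen, and the sources used here do not say which libraries shared a pen.

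When unfolded proteins accumulate in the ER, BiP is drawn away from the lumenal side of the sensors, and each sensor starts a branch of the response. IRE1 splices the XBP1 mRNA, ATF6 moves to the Golgi and is cut to release a transcription factor, and PERK phosphorylates the alpha subunit of the initiation factor eIF2, which slows translation while ATF4 is still made. XBP1 and ATF6 raise chaperones and genes of ER-associated degradation, and ATF4 raises CHOP, TRIB3 and genes of amino acid metabolism. Much of this signalling is carried by splicing, cleavage and phosphorylation, which gene-level mRNA values do not show. In particular, the counts of XBP1 do not separate its spliced from its unspliced mRNA.

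The primer pairs with which the study measured genes of this pathway by RT-qPCR are shown because they set which transcripts its readout covers. They are given 5′ to 3′, in lower case throughout with no part marked.
ATF6 forward: taaaggtcagaccgtggtgc
ATF6 reverse: gcaacagcaaggactggttg
ATF4 forward: aggaggatgcccactcagat
ATF4 reverse: tctccaggagggtcgtaagg
CHOP forward: agtggcacagctagctgaag
CHOP reverse: ggtcaattagagctcggcga
EIF2α forward: cagacgctgcactacattgc
EIF2α reverse: cacaggatcgcacttcaggt
In the RefSeq table of ARS-UI_Ramb_v3.0, the transcript listed with each of the first 3 pairs belonged to ATF6, ATF4 and DDIT3. The transcript listed with the EIF2α pair belonged to EIF2A, whereas the key to the primers spells EIF2α out as the kinase encoded by EIF2AK3, so it is uncertain which gene that readout was meant for. EIF2A encodes an initiation factor distinct from the eIF2 alpha subunit that PERK phosphorylates, which is encoded by EIF2S1. The primers were not aligned to a sequence here.

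Positions are those of the deposited table. Its build is not given in the sources used here, but 96.6% of the 24947 genes matched by symbol had the same start and end in ARS-UI_Ramb_v3.0, and so did all 10 members. ATF4, EIF2AK3, DDIT3, HSPA5 and HSP90B1 lie on chromosome 3. ERN1 spans 47996675 to 48080222 on the minus strand of chromosome 11, and ATF6 spans 113154323 to 113402720 on the plus strand of chromosome 1. XBP1 lies at 68224528 to 68229566 on the minus strand of chromosome 17, DNAJB9 at 61181614 to 61186518 on the minus strand of chromosome 4, and TRIB3 at 60298959 to 60310435 on the minus strand of chromosome 13. On chromosome 3, EIF2AK3 spans 59234138 to 59316285 on the minus strand, HSPA5 spans 10783159 to 10787445 on the plus strand and HSP90B1 spans 173206091 to 173224776 on the plus strand. The DDIT3 model (162137415 to 162138229, plus strand) lies wholly inside LOC541600 (162134313 to 162138229, plus strand), which is also described as DNA damage-inducible transcript 3, so their reads can be split between both rows. The ATF4 model (216751096 to 216770443, plus strand) contains LOC121819231 on the same strand and a noncoding RNA on the other, and its row also carries a description of the mitochondrial protein MID51. The values of DDIT3 and ATF4 are therefore uncertain. LOC121819231 had 50 to 213 counts and the noncoding RNA 37 to 128, against 13532 to 22772 for ATF4. The part of MID51 reads in the ATF4 row was not tested. The ERN1 model overlaps a noncoding RNA gene on the other strand with at most 40 counts in any library, and the ATF6 model contains LOC105611653 on the same strand with at most 16. DDIT3 also overlaps the end of MARS1, a gene on the other strand with 2155 to 3145 counts, against 127 to 250 for DDIT3 in the 14 libraries other than AFB1 replicate 1. Whether the counting used strand is not known, and the part of MARS1 reads in the DDIT3 row was not tested.

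Library totals ranged from 50255295 to 68747047 counts, and the lowest member, TRIB3, still had 119 to 364 counts per library outside AFB1 replicate 1. The library labelled AFB1 replicate 1 went against its kidney label. Its 13 measured hepatocyte markers summed to 56192 FPKM (fragments per kilobase of transcript, scaled to library size), against 70.5 to 386 in the other 14 libraries, and its 8 proximal tubule markers summed to 17.2 FPKM against 1053 to 2938. Its 9 markers of the loop and collecting duct summed to 14.5 FPKM against 833 to 2800, with 2 of them at 0. Comparisons of the members with the AFB1 group are therefore given with all 15 libraries and without this library. AFB1 replicates 2 and 3, which were kept, had a smaller hepatocyte signal. Their mean log2(FPKM + 1) of the hepatocyte markers was 3.25 and 3.02, against 2.04 and 2.03 in AFB1 replicates 4 and 5. It was 2.00 to 2.52 in CON and 1.67 to 2.43 in AFB1_CUR. ALB, one of these markers, had 23.9 and 11.8 FPKM in AFB1 replicates 2 and 3, against at most 4.48 FPKM in CON. The part of this signal in the members' values was not tested. As a pair, AFB1 replicate 2 and AFB1_CUR replicate 2 stood apart in immune markers. Their 6 plasma cell markers summed to 687 and 990 FPKM against 7.20 to 95.7 in the other 12 kidney libraries, and their 8 leukocyte markers to 671 and 834 FPKM against 149 to 400.0.

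The ER chaperones HSPA5 and HSP90B1 had the highest levels of the 10 genes and TRIB3 the lowest. Over the 14 libraries without AFB1 replicate 1, the mean level was 145 ± 29.7 FPKM (SD, n = 14) for HSPA5, which binds unfolded chains in the ER lumen, and 137 ± 33.1 FPKM for HSP90B1, the ER member of the HSP90 family. These neighbours were not separated, with HSPA5 the higher in 10 of 14 libraries. XBP1 followed at 63.3 ± 18.8 FPKM and was below HSP90B1 in every library. ATF4 (30.2 ± 3.92 FPKM) and DNAJB9, a cochaperone of BiP (14.7 ± 4.68 FPKM), came next, and the ranges of XBP1, ATF4, DNAJB9 and ATF6 did not touch. The sensors were low relative to these members. Among genes with at least 1 FPKM in at least 5 of the 14 libraries, ATF6 was at level percentile 50.4, EIF2AK3 at 45.5 and ERN1 at 33.8. ATF6 had 6.75 ± 0.921 FPKM, EIF2AK3 5.64 ± 1.71 FPKM and ERN1 3.80 ± 1.05 FPKM, and ATF6 exceeded EIF2AK3 in 12 of 14 libraries. DDIT3 (4.07 ± 0.891 FPKM, in its own row only) was not separated from ERN1, being the higher in 9 of 14. TRIB3, a pseudokinase induced through ATF4 and CHOP, had 1.21 ± 0.490 FPKM and lay below every value of ERN1.

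The members also differed in how much they varied. Among the genes with at least 1 FPKM in at least 5 of the 14 libraries, the SD of log2(FPKM + 1) placed ATF4 at percentile 23.8 and ATF6 at percentile 24.6, the steadiest of the 10. DNAJB9 was at percentile 84.3, XBP1 at 77.0 and EIF2AK3 at 74.4.

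**Figure D1:**
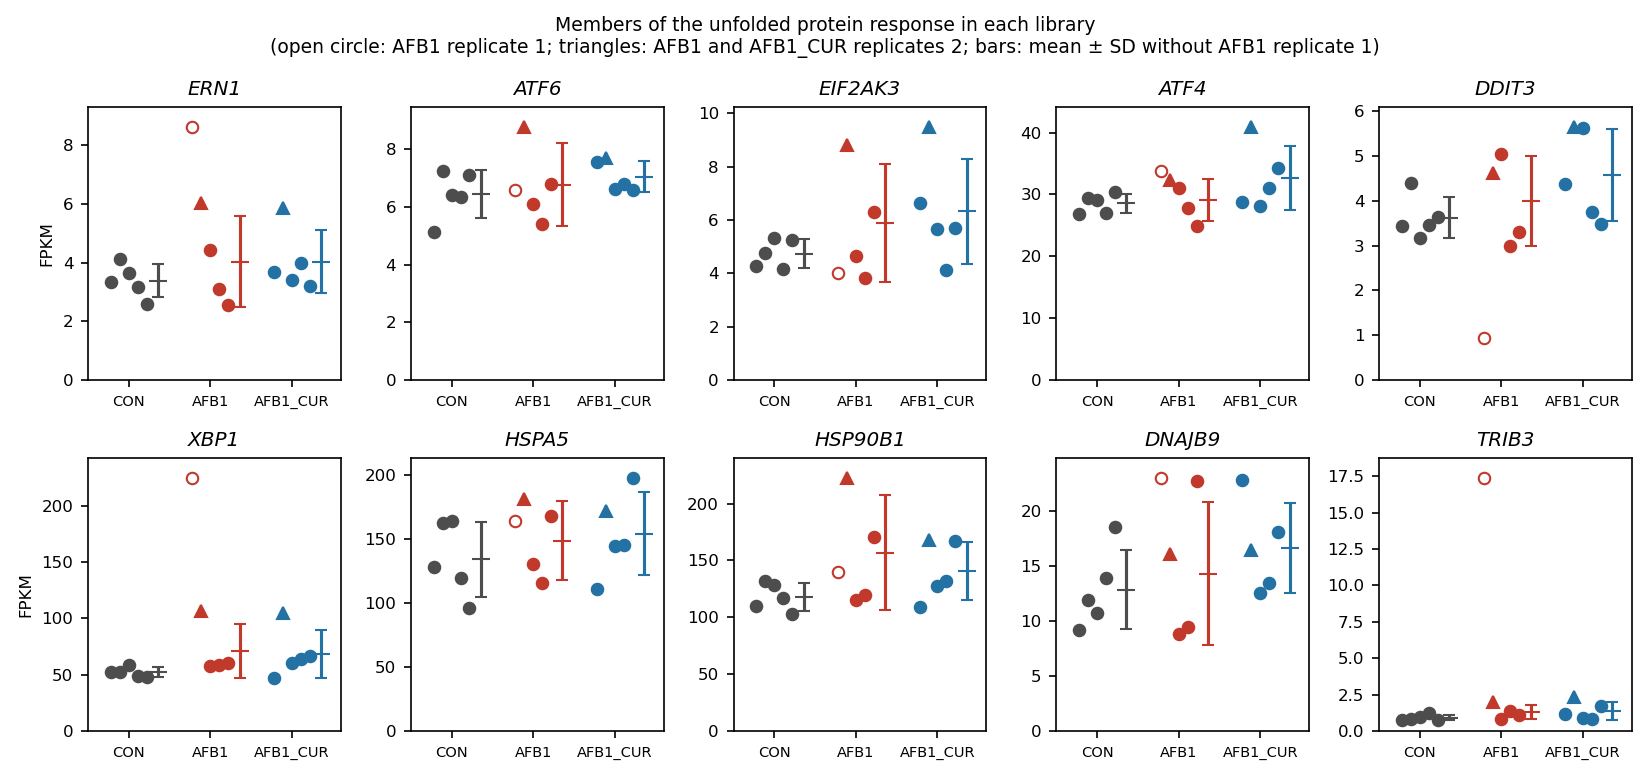
FPKM of each member (y axis, linear from 0, a scale of its own per panel) in the 5 libraries of each group, with the mean ± SD beside them (n = 4 for AFB1, without replicate 1, and n = 5 for the others). The open circle is AFB1 replicate 1, which holds the highest value of ERN1, XBP1, DNAJB9 and TRIB3 and the lowest of DDIT3. The triangles are replicates 2 of AFB1 and AFB1_CUR, which hold the 2 highest kidney values of ERN1, ATF6, EIF2AK3, XBP1 and TRIB3.

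Compared with the CON group, 3 of 10 members were higher in AFB1 with all 15 libraries, and 0 of 10 without AFB1 replicate 1. A gene counted as called when its fold change exceeded 1.5 and its p in edgeR's quasi-likelihood test, taken before adjustment, was under 0.05. Both thresholds are those the study screened with, although its test was that of DESeq2, and they do not correct for the number of genes. By that rule 4.84% of the 13193 tested genes were called with all libraries and 1.76% of 13162 without replicate 1. ERN1, XBP1 and TRIB3 were the members called, and AFB1 replicate 1 held the highest value of each.

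TRIB3 had 0.779, 0.851, 0.941, 1.26 and 0.787 FPKM in CON replicates 1 to 5. In AFB1 it had 17.4 FPKM in replicate 1 and 1.99, 0.853, 1.40 and 1.07 FPKM in replicates 2 to 5. The hepatocyte-like library was thus 14.4 times the mean of the 14 others, while the kidney libraries of AFB1 overlapped with CON. The log2 fold change was 2.84 (SE 0.87, 95% CI 0.97 to 4.72, adjusted p = 0.596, edgeR) with all libraries and 0.50 (SE 0.30, 95% CI -0.14 to 1.14, adjusted p = 0.957) without replicate 1. It was 0.31 (SE 0.28) without both replicates 2 as well.

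XBP1 had 52.8, 52.0, 59.1, 49.3 and 48.1 FPKM in CON. In AFB1 it had 224 FPKM in replicate 1 and 107, 57.8, 58.9 and 60.6 FPKM in replicates 2 to 5. Among the AFB1 kidney libraries, replicate 2 lay far above CON, replicate 5 just above the highest CON value, and replicates 3 and 4 just below it. The log2 fold change was 1.30 (SE 0.45, 95% CI 0.34 to 2.26, adjusted p = 0.596, edgeR) with all libraries and 0.42 (SE 0.18, 95% CI 0.03 to 0.81, adjusted p = 0.957) without replicate 1, the latter below the fold threshold. Without AFB1 replicate 1 and both replicates 2, it was 0.23 (SE 0.12, 95% CI -0.03 to 0.48). XBP1 is required for plasma cell differentiation, and the part of the plasma cell signal of the replicates 2 in its value was not tested. In bulk tissue, a different number of cells of a type and a different level per cell cannot be told apart.

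ERN1 had 3.35, 4.12, 3.65, 3.18 and 2.61 FPKM in CON and 8.62, 6.04, 4.42, 3.11 and 2.55 FPKM in AFB1. The AFB1 group held both the highest and the lowest value. The log2 fold change of 0.82 (SE 0.36, 95% CI 0.05 to 1.59, adjusted p = 0.599, edgeR) became 0.23 (SE 0.20, 95% CI -0.20 to 0.65) without replicate 1 and 0.02 (SE 0.16) when both replicates 2 were left out as well. With replicate 1 kept, the call of ERN1 was also lost when AFB1 replicate 2 or CON replicate 1, 3, 4 or 5 was left out.

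HSP90B1 came nearest to a call among the chaperones. It had 110, 132, 128, 117 and 103 FPKM in CON and 140, 222, 115, 120 and 170 FPKM in AFB1. Replicates 2 and 5 of AFB1 lay above all CON values and replicates 3 and 4 among them. Its log2 fold change was 0.53 (SE 0.20, 95% CI 0.11 to 0.95, adjusted p = 0.596, edgeR) with all libraries and 0.40 (SE 0.18, 95% CI 0.02 to 0.79, adjusted p = 0.957) without replicate 1, both below the fold threshold, and 0.26 (SE 0.18) without both replicates 2 as well.

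HSPA5, the most used marker of the response, had 128, 162, 163, 119 and 96.3 FPKM in CON and 164, 181, 131, 115 and 167 FPKM in AFB1. The groups overlapped, with a log2 fold change of 0.37 (SE 0.23) with all libraries and 0.15 (SE 0.19, 95% CI -0.25 to 0.55) without replicate 1. DNAJB9 ranged from 9.22 to 18.6 FPKM in CON and from 8.88 to 22.7 FPKM in the 4 AFB1 kidney libraries, for a log2 fold change of 0.17 (SE 0.30), against 0.56 (SE 0.36) with all libraries.

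The sensors of the other branches and the PERK-linked factors overlapped between CON and AFB1. EIF2AK3 had 4.26, 4.75, 5.32, 4.15 and 5.23 FPKM in CON and 4.03, 8.83, 4.63, 3.82 and 6.28 FPKM in AFB1. ATF6 ranged from 5.13 to 7.22 FPKM in CON and from 5.42 to 8.76 FPKM in AFB1. Without replicate 1 the log2 fold change was 0.30 (SE 0.22) for EIF2AK3 and 0.06 (SE 0.12) for ATF6, and without both replicates 2 as well it was 0.11 (SE 0.20) and -0.03 (SE 0.13). For ATF4 it was 0.02 (SE 0.09), with a 95% CI from -0.19 to 0.22, the narrowest of the members. With all libraries the log2 fold change was 0.34 (SE 0.21) for EIF2AK3, 0.23 (SE 0.16) for ATF6 and 0.26 (SE 0.18) for ATF4, none of them called.

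DDIT3, whose product CHOP promotes cell death under lasting ER stress, was read with care because of the shared locus. Its row had 3.44, 4.39, 3.17, 3.47 and 3.64 FPKM in CON and 0.930, 4.63, 5.04, 2.99 and 3.29 FPKM in AFB1. The row of LOC541600, which encloses it, had 6.13 to 8.30 FPKM in CON and 6.63 to 11.1 FPKM in AFB1, and AFB1 replicate 1, the lowest library in the DDIT3 row at 41 counts, had 391 counts there. The log2 fold change of DDIT3 was -0.06 (SE 0.26) with all libraries and 0.12 (SE 0.19) without replicate 1. With both rows summed it was 0.28 (SE 0.14, adjusted p = 0.631, edgeR) with all libraries and 0.28 (SE 0.15, adjusted p = 0.956) without replicate 1.

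Compared with the AFB1 group, 2 of 10 members were lower in AFB1_CUR with all 15 libraries, where 3.98% of tested genes were called, and 0 of 10 without AFB1 replicate 1, where 0.935% were called. TRIB3 had 1.16, 2.36, 0.916, 0.860 and 1.69 FPKM in AFB1_CUR. Its log2 fold change of -2.35 (SE 0.86, 95% CI -4.18 to -0.52, adjusted p = 0.785, edgeR) became -0.01 (SE 0.30, 95% CI -0.65 to 0.63) without replicate 1. XBP1 had 47.1, 104, 60.2, 63.8 and 66.2 FPKM in AFB1_CUR. Its log2 fold change of -1.004 (SE 0.44, 95% CI -1.96 to -0.05, adjusted p = 0.785, edgeR) became -0.13 (SE 0.18, 95% CI -0.52 to 0.26). The call of XBP1 was also lost when AFB1_CUR replicate 1, 3, 4 or 5 was left out. The contrast of AFB1 with AFB1_CUR uses the same AFB1 libraries as the contrast with CON, so both moved with the same library.

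Without AFB1 replicate 1, the estimates between AFB1_CUR and AFB1 were small, with 4 of 10 members higher in AFB1_CUR and a median log2 fold change of -0.01. The largest was HSP90B1 at -0.23 (SE 0.18, 95% CI -0.62 to 0.16), against -0.35 (SE 0.20) with all libraries. HSP90B1 had 109, 168, 127, 132 and 167 FPKM in AFB1_CUR, which lay within the range of the AFB1 kidney libraries except for the lowest value. HSPA5 had 111, 172, 145, 145 and 197 FPKM in AFB1_CUR, with a log2 fold change of -0.03 (SE 0.19) against AFB1. With all libraries, the uncalled members ran from a log2 fold change of -0.64 (SE 0.36) for ERN1 to 0.33 (SE 0.26) for DDIT3. ERN1 ranged from 3.22 to 5.87 FPKM in AFB1_CUR, within the range of the AFB1 kidney libraries. DDIT3 had 4.39, 5.64, 5.62, 3.75 and 3.48 FPKM in AFB1_CUR, and its log2 fold change against AFB1 was 0.14 (SE 0.19) in its own row and -0.13 (SE 0.15) with LOC541600 summed in, so its direction depended on which row held the reads. DNAJB9 had 22.8, 16.5, 12.6, 13.5 and 18.1 FPKM in AFB1_CUR, and its log2 fold change against AFB1 was 0.14 (SE 0.31).

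Compared with the CON group, 0 of 10 members were called in AFB1_CUR, with all libraries, where 0.993% of genes were called, or without AFB1 replicate 1, where 1.63% were called. All 10 estimates were above 0 in the fit without that library, with a median of 0.22 against -0.003 over all tested genes. The largest were those of TRIB3 (0.49, SE 0.28, adjusted p = 0.823, edgeR) and EIF2AK3 (0.33, SE 0.21, adjusted p = 0.829). EIF2AK3 had 6.64, 9.47, 5.68, 4.14 and 5.70 FPKM in AFB1_CUR, so 4 of 5 libraries lay above every CON value and 1 just below the lowest. Without both replicates 2, its log2 fold change was 0.21 (SE 0.18), that of TRIB3 was 0.29 (SE 0.26), and DNAJB9 was the largest at 0.36 (SE 0.33). ATF4 had 28.9, 40.9, 28.2, 31.0 and 34.3 FPKM in AFB1_CUR, with a log2 fold change of 0.11 (SE 0.09). The same 10 estimates for AFB1 against CON, which share the CON libraries, were also above 0, with a median of 0.20. Without both replicates 2, that median was 0.11 with 9 of 10 above 0, and the median for AFB1_CUR against CON was 0.16 with 10 of 10 above 0.

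After Benjamini-Hochberg adjustment over all tested genes, edgeR called 0 members and 0% of genes in each of the 3 comparisons, with all libraries and without AFB1 replicate 1. At an unadjusted p under 0.05, the numbers of genes were 1071, 765 and 360 with all libraries and 664, 303 and 723 without replicate 1. DESeq2 called 7, 2 and 1 genes after adjustment with all libraries and 17, 3 and 1 without replicate 1, none of them a member. The smallest adjusted p of a member by edgeR was 0.596 with all libraries. No member had groups that were fully apart in FPKM in any comparison. Among all tested genes, groups were fully apart in 1.02%, 0.493% and 0.72% with all libraries, for AFB1 against CON, AFB1_CUR against AFB1 and AFB1_CUR against CON in turn. Without replicate 1 these shares were 1.54%, 0.676% and 0.722%.

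**Figure D2:**
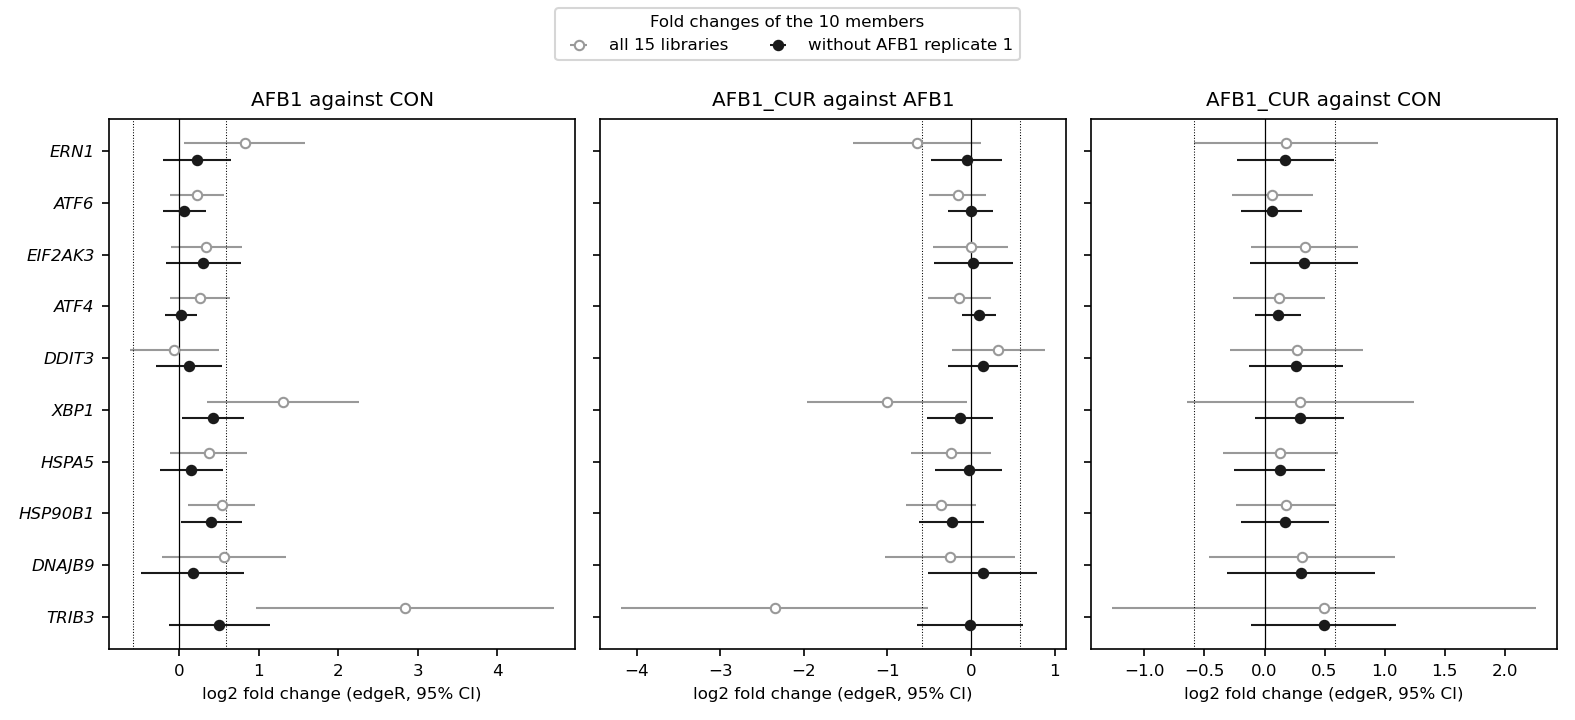
Log2 fold change of each member (x axis) with its 95% confidence interval in the 3 comparisons, with all 15 libraries (open) and without AFB1 replicate 1 (filled), from edgeR. Dotted lines mark a fold change of 1.5. TRIB3 moved from 2.84 to 0.50 between AFB1 and CON and from -2.35 to -0.01 between AFB1_CUR and AFB1, and the 3 panels have x axes of their own.

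The libraries with the highest immune markers also held the highest values of several members. AFB1 replicate 2 and AFB1_CUR replicate 2 took the first and second ranks of the 14 kidney libraries for ERN1, ATF6, EIF2AK3, XBP1 and TRIB3. Relative to the mean of the other 12, their mean was 2.07 times for TRIB3, 1.87 times for XBP1, 1.81 times for EIF2AK3 and 1.73 times for ERN1, and 1.26 times for HSPA5 and 1.14 times for DNAJB9. For XBP1, the values of 107 and 104 FPKM stood against 47.1 to 66.2 FPKM in the others. MZB1, an ER protein of plasma cells, had 77.6 and 46.5 FPKM in this pair of libraries, against 0.225 to 6.97 FPKM in the other 12. It is one of the plasma cell markers by which the pair was set apart. AFB1 replicate 2 also held the highest HSP90B1 value, 222 FPKM, but the highest HSPA5 value, 197 FPKM, was that of AFB1_CUR replicate 5, whose plasma cell markers summed to 32.5 FPKM and leukocyte markers to 386 FPKM.

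**Figure D3:**
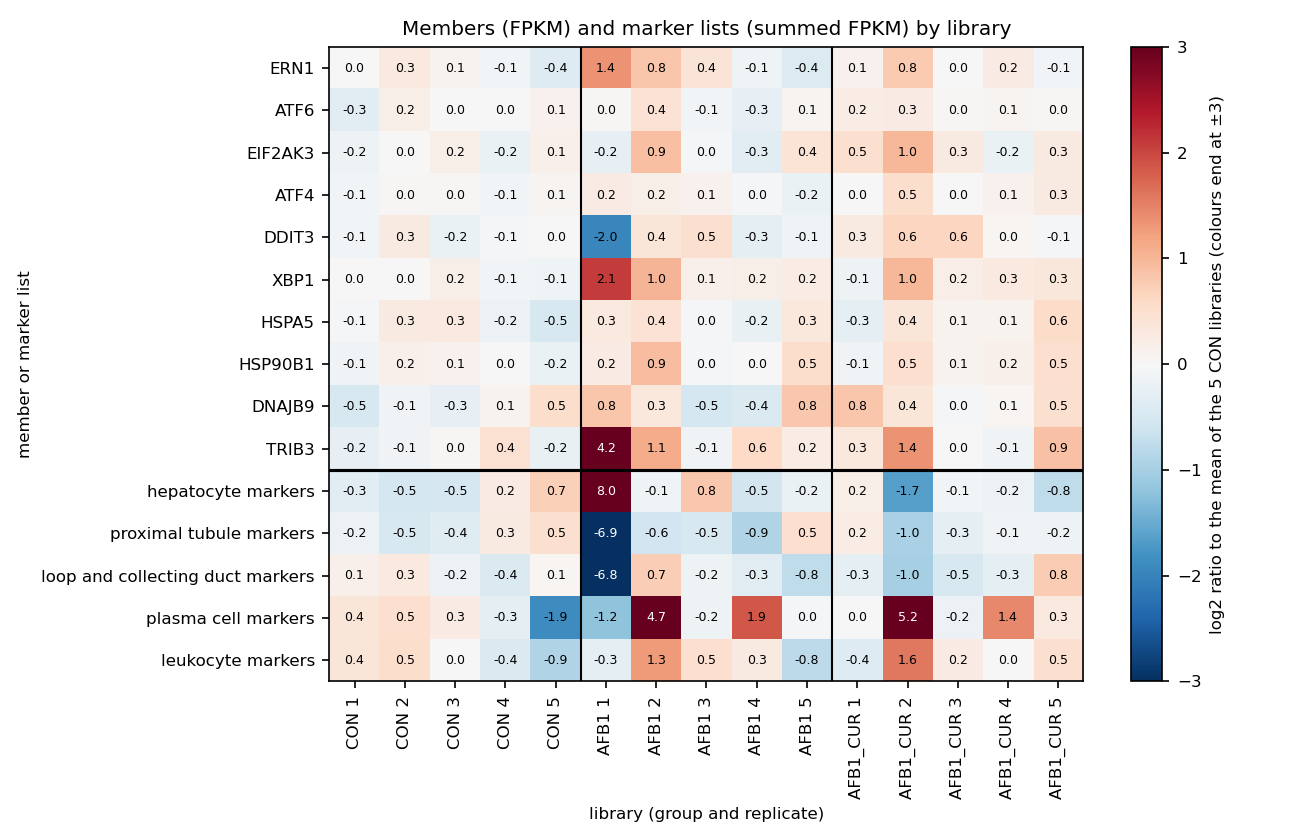
Log2 ratio of each member's FPKM (upper 10 rows) and of the summed FPKM of each marker list (lower 5 rows) to the mean of the 5 CON libraries, by library (columns). AFB1 replicate 1 is high in hepatocyte markers and low in both kidney lists, and replicates 2 of AFB1 and AFB1_CUR are high in plasma cell and leukocyte markers. Colours end at a log2 ratio of 3 in either direction.

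The other genes of the response were read from lists of each branch. They held 62 genes, of which 61 were in the table and 55 were tested. With all libraries, AFB1 against CON gave 7 called higher and 1 lower of the 55, where 4.84% of all tested genes were called. The higher genes were PDIA4, SEC61B, SEC24D, ATF5, CEBPB, ALDH18A1 and NUPR1, and the lower was SESN2. In AFB1 replicate 1, CEBPB, a transcription factor abundant in liver, had 104 FPKM against 6.79 to 23.8 FPKM elsewhere, and ATF5 had 93.0 FPKM against 2.85 to 6.82 FPKM. None of these 8 genes was called without that library. For SESN2, a stress-induced sestrin, the groups were still fully apart without it (1.54% of all tested genes), with 12.3 to 16.6 FPKM in CON and 8.30, 7.52, 11.3 and 12.1 FPKM in the AFB1 kidney libraries. Its log2 fold change went from -0.68 (SE 0.27) to -0.56 (SE 0.26), short of both thresholds.

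Without AFB1 replicate 1, 1 gene was called higher and 1 lower in AFB1 than in CON among the 55, where 1.76% of all tested genes were called. DERL3, a component of ER-associated degradation, had a log2 fold change of 2.50 (SE 1.05, 95% CI 0.25 to 4.76, adjusted p = 0.957, edgeR). It had 44.8 FPKM in AFB1 replicate 2 and 41.2 FPKM in AFB1_CUR replicate 2, against 0.611 to 8.42 FPKM in the other 12 kidney libraries. Without AFB1 replicate 2 its log2 fold change was 0.83, and its call was also lost without CON replicate 1, 4 or 5. ATF3, a stress-induced transcription factor downstream of ATF4, was lower, with a log2 fold change of -0.81 (SE 0.29, 95% CI -1.44 to -0.18, adjusted p = 0.957, edgeR). ATF3 had 4.32, 4.02, 11.1, 4.06 and 5.64 FPKM in CON and 3.81, 2.58, 3.04 and 3.86 FPKM in the AFB1 kidney libraries, so the groups did not overlap (1.54% of all tested genes). Without CON replicate 3, its log2 fold change was -0.44, below the fold threshold.

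ATF3 was also lower in AFB1_CUR than in CON, with a log2 fold change of -0.72 (SE 0.27, adjusted p = 0.823, edgeR) that became -0.35, and no longer called, without CON replicate 3. NUPR1, a small stress protein, was higher in AFB1_CUR at 1.04 (SE 0.44, adjusted p = 0.823, edgeR). It had 80.1 FPKM in AFB1 replicate 1, and its highest value in the kidney libraries, 38.6 FPKM, was that of AFB1_CUR replicate 2. NUPR1 was at 0.44 without that library, and its call was lost without CON replicate 1, 4 or 5 too. Between AFB1_CUR and AFB1, 0 of the 55 genes were called without AFB1 replicate 1 (0.935% of all tested genes), against 3 lower with all libraries (PDIA4, ATF5 and CEBPB), where 3.98% of all tested genes were called. Between AFB1_CUR and CON, ATF3 and NUPR1 were the list genes called without AFB1 replicate 1, beside 1.63% of all tested genes. MAP3K5 (ASK1), a stress kinase linked to IRE1 and named after its values were seen, was called between AFB1_CUR and AFB1 once both replicates 2 were left out as well, at 0.59 (SE 0.22, adjusted p = 0.997, edgeR), against 0.17 (SE 0.27) with them. It was 1 of 55 list genes called in that fit, where 1.6% of all tested genes were called. With AFB1 replicate 1 kept and both replicates 2 left out, MAP3K5 was called in 2 comparisons. It was at -0.86 between AFB1 and CON (6.19% of all tested genes called) and 0.85 between AFB1_CUR and AFB1 (5.51%). Both contrasts use the same AFB1 libraries.

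The branches are described without AFB1 replicate 1. The median log2 fold changes between AFB1 and CON ran from 0.06 to 0.21, beside 0.02 over all tested genes. The ATF6-branch list, mostly ER chaperones and folding enzymes, had a median of 0.21 with 11 of 14 above 0 and 0 called. The IRE1-XBP1 list had a median of 0.09 with 12 of 16 above 0, and the ATF4 and CHOP targets a median of 0.07 with 9 of 18 above 0. The kinases and phosphatases of eIF2 alpha had a median of 0.06 with 5 of 8 above 0. Without both replicates 2, which were both high in plasma cell markers, the medians were 0.13, 0.05, 0.09 and 0.09 in the same order. In the eIF2 alpha list PPP1R15A, which encodes the stress-induced subunit (GADD34) that reverses PERK's phosphorylation, had an estimate below 0. It had 20.7, 22.1, 28.9, 19.5 and 20.7 FPKM in CON against 19.1, 18.7, 15.6 and 16.1 FPKM in the AFB1 kidney libraries, which did not overlap (1.54% of all tested genes). Its log2 fold change was -0.38 (SE 0.11, 95% CI -0.61 to -0.14, adjusted p = 0.957, edgeR), below the fold threshold. Without CON replicate 3 it was -0.26, and between AFB1_CUR and CON it was then -0.17.

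**Figure D4:**
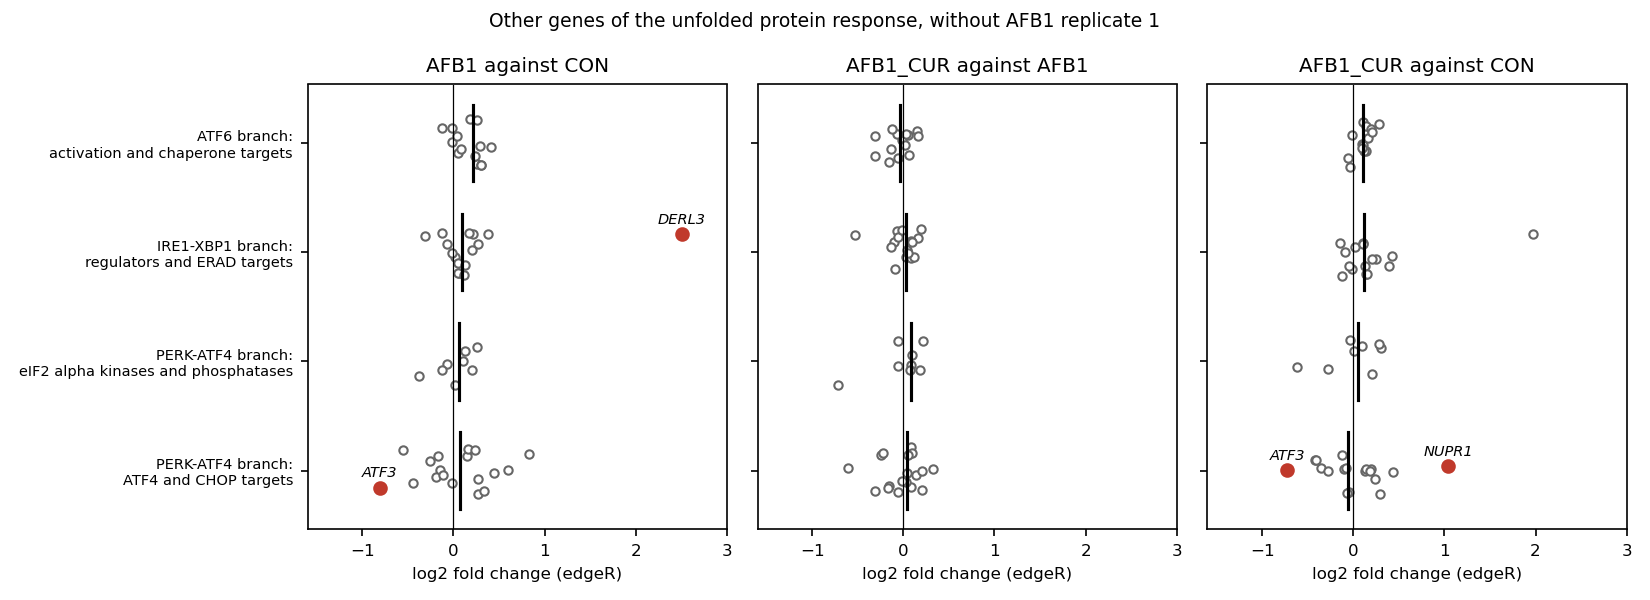
Log2 fold change (x axis, edgeR, without AFB1 replicate 1) of each tested gene in the 4 lists of other genes of the response, in the 3 comparisons. Each point is a gene, filled and named where it was called, and the vertical bar is the list's median. DERL3 lies at 2.50 and ATF3 at -0.81 between AFB1 and CON, and no gene is called between AFB1_CUR and AFB1.

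EIF2A and EIF2S1 were set beside EIF2AK3 because of the primer pair shown above, a choice of EIF2A made after its values were seen. EIF2A had 9.74 ± 0.704 FPKM in CON (n = 5), 8.92 ± 1.79 FPKM in AFB1 without replicate 1 (n = 4) and 9.97 ± 0.949 FPKM in AFB1_CUR (n = 5). EIF2S1 had 8.54 ± 1.72 FPKM in CON, 9.22 ± 1.502 FPKM in AFB1 without replicate 1 and 11.1 ± 1.49 FPKM in AFB1_CUR. Without replicate 1, the log2 fold change between AFB1 and CON was -0.14 (SE 0.12) for EIF2A, 0.12 (SE 0.15) for EIF2S1 and 0.30 (SE 0.22) for EIF2AK3, and none was called. Between AFB1_CUR and CON it was 0.30 (SE 0.14, adjusted p = 0.823, edgeR) for EIF2S1.

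Across the 14 kidney libraries the members tended to vary together, and fewer of these relations passed the test without the pair of libraries with high immune markers. Of 45 pairs of members, 44 had a positive Pearson correlation of log2(FPKM + 1), with a median r of 0.52, and 15 had an adjusted p under 0.05 in a two-sided permutation test (100000 resamples, adjusted over the 45 pairs). Over the 12 libraries without both replicates 2, 31 of 45 were positive, the median r was 0.17 and 1 pair passed. Over 14 libraries, 4 pairs passed on log2 TMM-normalised counts, with 40 of 45 positive and a median r of 0.34, and 5 passed with Spearman's rho. Among all pairs of the 13162 tested genes, as a description, the median r of log2(FPKM + 1) was 0.09 over 14 libraries with 58.5% positive and 0.07 over 12 with 56.5% positive. XBP1 and ERN1 had r = 0.76 over 14 libraries (permutation test, adjusted p = 0.0290, raw p = 0.00472), whereas their rho was 0.34 (permutation p = 0.239) and r over 12 libraries was 0.08. XBP1 and EIF2AK3 had r = 0.73 (permutation test, adjusted p = 0.0290, raw p = 0.00609), with rho at 0.39 (permutation p = 0.166) and r over 12 libraries at -0.03. Both relations rested on the replicates 2, which were also the 2 libraries farthest from the median level of ERN1 and of EIF2AK3.

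HSPA5 with HSP90B1 was the pair that passed over 12 libraries too. Its r was 0.84 over 14 libraries (permutation test, adjusted p = 0.00315, raw p = 0.00014), and its rho was 0.91 (permutation p = 1e-05, the smallest that these resamples can give). Without the 2 libraries farthest from the median HSPA5 level, r was 0.82. Over 12 libraries it was 0.88 (permutation test, adjusted p = 0.000900, raw p = 2e-05), and over 14 libraries with the group means removed 0.86. XBP1 with HSP90B1 had r = 0.85 (permutation test, adjusted p = 0.00270, raw p = 6e-05), its rho was 0.88 (permutation p = 8e-05), and r over 12 libraries was 0.73 (permutation test, adjusted p = 0.0769, raw p = 0.00580). DNAJB9, although an ER chaperone gene like HSPA5, had r = 0.12 with it (permutation test, adjusted p = 0.709, raw p = 0.693) and rho = 0.12 (permutation p = 0.695). With ATF6, DNAJB9 had r = 0.66 over 14 libraries (permutation test, adjusted p = 0.0337, raw p = 0.00946), its rho was 0.68 (permutation p = 0.00880), and r over 12 libraries was 0.73 (permutation test, adjusted p = 0.0769).

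**Figure D5:**
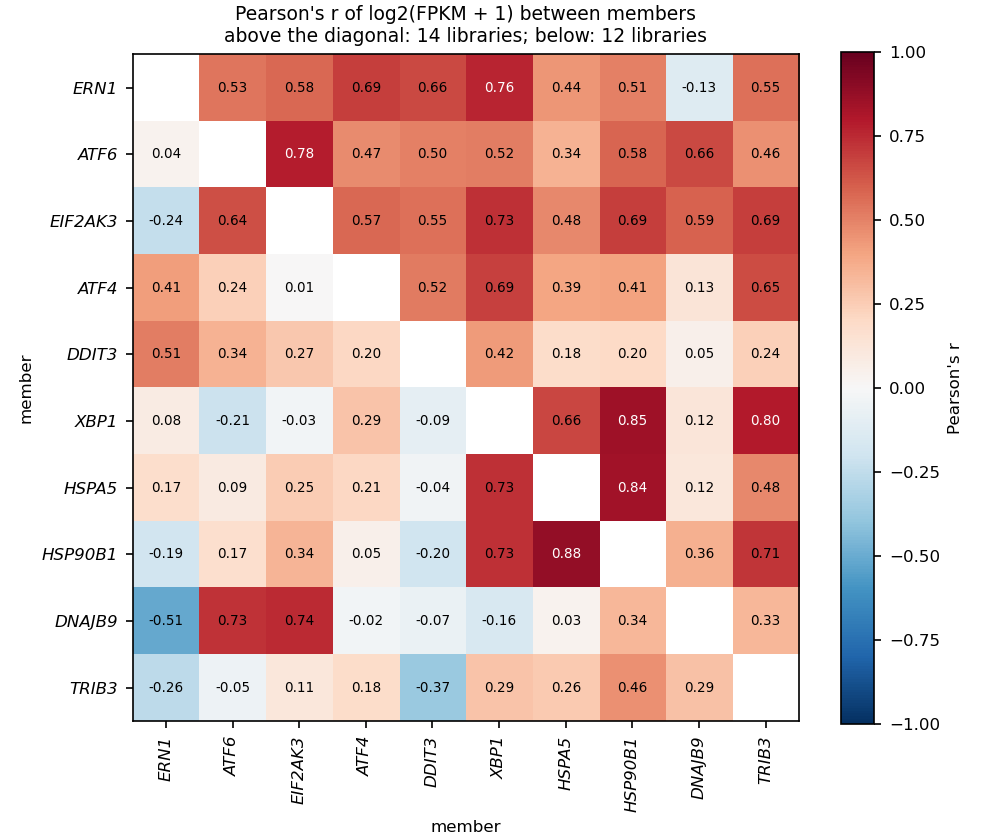
Pearson correlation of log2(FPKM + 1) between each pair of members over 14 kidney libraries (above the diagonal) and over the 12 without both replicates 2 (below). HSPA5 with HSP90B1 is 0.84 above and 0.88 below, and XBP1 with ERN1 is 0.76 above and 0.08 below.

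As a description, the genes most like each member across the 14 libraries were sought among those with at least 1 FPKM in at least 5 of them. HSPA5 was followed most closely by MANF (r = 0.92), HYOU1 (r = 0.91) and CALR (r = 0.89), which encode ER-resident proteins, and these were 0.90, 0.92 and 0.87 over the 12 libraries. HSP90B1 was followed by PDIA4 (r = 0.93), PDIA3 (r = 0.92) and DNAJB11 (r = 0.91), also genes of ER folding, at 0.88, 0.88 and 0.89 over 12. DNAJB9 was followed by MIB1 (r = 0.93), a ubiquitin ligase, CANX (r = 0.92), which encodes the chaperone calnexin, and TMEM33 (r = 0.90).

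The genes most like the sensors, the transcription factors and TRIB3 were not ER chaperone genes. They were ABCG1, KIF21B and AKAP13 for ERN1 (r from 0.95 to 0.97), BBX, NCOA1 and LIN54 for ATF6, and SKIL, ARL6IP6 and HNRNPA3 for EIF2AK3. For XBP1 they were KPNA2 (r = 0.95), ANGPT2 (r = 0.94) and SLC1A4 (r = 0.94), of which SLC1A4 had r = 0.58 over 12 libraries. For ATF4 they were RABEP1, BCOR and CAMSAP2 (r from 0.94 to 0.95), for DDIT3 RRN3, R3HCC1L and COG6 (r from 0.85 to 0.87), and for TRIB3 ACTL6A, PDCD4 and ING2 (r from 0.89 to 0.90).

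The members also differed in how they went with the marker lists of the tissue, given as descriptions over libraries that share their tissue makeup. With the mean log2(FPKM + 1) of the plasma cell markers, r over 14 libraries was 0.93 for XBP1, 0.84 for ERN1 and 0.81 for TRIB3, and over 12 libraries 0.48, 0.41 and 0.26. It went from 0.69 to -0.49 for EIF2AK3, 0.50 to -0.43 for ATF6, 0.43 to -0.22 for DDIT3 and 0.04 to -0.54 for DNAJB9. The other members stayed above 0. With the leukocyte markers, r was 0.89 for ERN1, 0.86 for XBP1 and 0.72 for TRIB3 over 14 libraries, and 0.69, 0.49 and 0.17 over 12. With the proximal tubule markers, DNAJB9 had r = 0.63 over 14 and r = 0.82 over 12 libraries, whereas ERN1 had r = -0.62 and r = -0.53. HSPA5 was weakly related to that list (r = -0.31 over 14 and r = -0.16 over 12). ATF4 had r = 0.09 over 14 and r = 0.77 over 12 libraries with the loop and collecting duct markers. The part of tissue makeup in the members' values was not tested.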

How the data were processed

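RNA came from 15 samples labelled as kidney, 5 per group, grouped by their titles. Per the labels, poly(A) RNA with an integrity number above 7 was made into stranded paired-end libraries, and the submitters' processing notes name cutadapt 1.9, HISAT2 2.2.1, StringTie 2.1.6, DESeq2 and edgeR without roles. The table that the authors deposited pairs a raw count with an FPKM for each gene in each library. For counting, its strand setting and the build, nothing is given in the sources used here.

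Genes with at least 1 FPKM in at least 5 libraries were tested on the deposited counts with edgeR 4.0.16 (R 4.3.3, TMM, quasi-likelihood, all groups in 1 model), and called at a fold change over 1.5 with p under 0.05 before adjustment. Printed p-values are adjusted over all tested genes. The edgeR fit of AFB1 against CON without AFB1 replicate 1 was tested on simulated counts. The other steps had no such test. Correlations used Python 3.11.15 and numpy 2.4.6 with permutation tests. Alternatives were DESeq2 1.42.0, limma 3.58.1 on log2(FPKM + 1) and log2(FPKM + 0.1), no filter, the compared groups alone, a replicate block and leaving out each library. Those added after the data were seen were leaving out both replicates 2 of the AFB1-fed groups and summing DDIT3 with LOC541600.

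The members, lists and tests were chosen with earlier results of these data known. Named genes were the members, the list genes called in a comparison or with the largest changes of their list, and the 3 genes most correlated with each member. Promoter and protein sequences were not used here. P-values measure the spread between sheep, with shared pens not modelled. Library totals were at least 50255295 counts, and counting error is largest for TRIB3 and DDIT3, the members with the fewest counts.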

Additional observations from a re-analysis of the deposited data

Results flagged for a closer look

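A sample was far from the others of its group in 2 of 40 tests by Dixon's criterion, where chance flags about 1 in 20. TRIB3 had 17.4 FPKM in AFB1 replicate 1, a gap of 0.931 of the range of the 5 AFB1 libraries, the library with hepatocyte markers. XBP1 had 107 FPKM in AFB1 replicate 2, a gap of 0.942 of the range of the 4 other AFB1 libraries, the library with high plasma cell markers. The part of either tissue signal in these values was not tested.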

How the results depend on the processing

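The count of members called between AFB1 and CON (3 with all libraries) was 1 with limma at either pseudocount, where the all-gene median log2 fold change was -0.10 and -0.14, and 0 with the replicate block, and it ranged from 0 to 5 when each library was left out. It was 0 without AFB1 replicate 1 and 5 without AFB1 replicate 3, when HSP90B1 and DNAJB9 joined. Of the 23 alternatives to that fit, XBP1 was called in 21, TRIB3 in 18 and ERN1 in 12. Calls over all tested genes moved too, from 4.84% to 1.96% and 2.63% with limma, 2.48% with the block, 1.76% without AFB1 replicate 1 and 6.7% without AFB1 replicate 3. For AFB1_CUR against AFB1 (2 members called with all libraries) the count was 1 with DESeq2, which gave no p for TRIB3, 1 with the compared groups alone, and 0 with limma at either pseudocount or the replicate block. The all-gene median was then 0.17 and 0.22 with limma. Of all tested genes, 3.98% were called with all libraries, 2.94% with DESeq2, 2.23% with the compared groups alone, 1.39% and 2.15% with limma and 1.33% with the block. The count of members ranged from 0 to 3 when each library was left out. Same-numbered kidney libraries of different groups correlated from -0.31 to 0.60 (mean 0.15) in their deviations from group means and others from -0.60 to 0.44 (mean -0.04), and replicates 2 of the 3 groups from 0.40 to 0.60. Not every pair was above 0.1 and no label pairs them, so the numbers were not treated as a pairing.

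Without AFB1 replicate 1, the counts of 0 became 1 (TRIB3) without AFB1 replicate 3 between AFB1 and CON (2.03% of all tested genes called) and without CON replicate 4 between AFB1_CUR and CON (1.26%), ranging from 0 to 1, and stayed 0 in the other alternatives. With all libraries, AFB1_CUR against CON stayed at 0 in every alternative run. With all libraries, no called member changed direction in the alternatives run. Without AFB1 replicate 1, where neither was called, TRIB3 changed sign between AFB1_CUR and AFB1 in 8 of 22 alternatives and XBP1 in 1.

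The 15 correlated pairs became 4 on log2 TMM-normalised counts, 5 with Spearman's rho, 1 without both replicates 2, and 2 to 16 when each library was left out, with 4 without CON replicate 1, 3 without AFB1_CUR replicate 2 and 2 without AFB1 replicate 2. With group means removed they were 10. The causes of these moves were not tested. With 4 or 5 sheep per group, intervals of the members' log2 fold changes without AFB1 replicate 1 allow changes past 1.5-fold for several members, so uncalled values do not show that levels were the same.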

Other observations

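In the row of LOC541600, which encloses DDIT3, the highest values were 11.5 FPKM in AFB1_CUR replicate 2 and 11.1 FPKM in AFB1 replicate 4, and its mean was 8.14 ± 1.96 FPKM (SD, n = 14) over the kidney libraries, above the 4.07 FPKM of the DDIT3 row.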
